A study of Mus musculus with 28 samples.

Results

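CD4-biased genes were followed through treatment of mouse T cells with histone deacetylase inhibitors. The genes were chosen by their level in the untreated arrays: a gene's brightest probe set naming 1 gene had to lie over 6 in both CD4 control arrays, and genes were ranked by the smaller of the differences, CD4 control minus CD8 control, within replicate numbers 1 and 2. The 150 highest-ranking genes were kept, of 6971 genes over 6 in both CD4 controls and 18193 genes on the array. Splenic CD4 and CD8 T cells, taken by negative selection, had been stimulated through CD3 and CD28 for 2 days. For 1 further day the treated cells received romidepsin (2, 10 or 30 nM) or vorinostat (0.5, 2 or 10 µM). The stimulated control had the same 2 days of stimulation, no named drug and 0 days of drug. All 14 groups (7 treatments of each cell type) therefore carried the same stimulation, and none held resting cells. Each group had 2 arrays, numbered replicate 1 and 2, so n is 2 for every group mean. The labels name no mouse strain, age or vehicle and do not say which animals the arrays came from, so p-values measure only the spread between these arrays. Romidepsin and vorinostat were given at different doses and are set side by side here, with no comparison of their strength.

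CD4 T cells help other immune cells through the cytokines that they release. Their type 2 form, set up by the transcription factor GATA3 and strengthened by MAF, secretes interleukins 4, 5 and 13, and IL-10 is a cytokine that restrains inflammation. CD8 T cells share the T cell receptor machinery but carry the CD8 coreceptor in place of CD4 and are specialised for killing. Histone deacetylases take acetyl groups off histones and many further proteins, and their inhibitors raise acetylation and change the transcription of many genes in both directions.

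Values are GCRMA values on a log2 scale (the base is not stated by the authors and was read from the range of the values), so that 1 unit is a doubling. A detection level of 4.27 was set 2 units over the most frequent value, and the 9870 genes that exceeded it in 2 or more arrays entered the tests. All 150 CD4-biased genes passed that filter by construction, through their CD4 control arrays. Between 8445 and 9320 tested genes were over the detection level in each array, and array medians ran from 2.31 to 2.40. The coreceptor genes matched the labels in the controls: Cd4 was at 8.55 and 8.02 in CD4 cells and at 2.34 and 2.25 in CD8 cells. Cd8a was at 5.09 and 6.07 in CD4 cells and at 11.1 and 11.6 in CD8 cells. The longer marker lists overlapped more. Of 5 CD4 T cell markers 4 were over the detection level in both CD4 controls and 2, Trat1 and Icos, in both CD8 controls. Of 15 CD8 T cell markers 11 were over it in both CD4 controls and 13 in both CD8 controls. Their summed level was 96.26 and 109.85 in CD4 controls and 145.76 and 153.18 in CD8 controls. Among them Runx3, Cst7 and Gzma were higher in the CD4 controls. The same-numbered arrays of all groups deviated together, and a fit with the replicate number as a block is given beside each count ("with the block"). The numbers also differed in sex-linked genes: Xist was at 11.69 to 12.72 in the replicate 2 arrays and at 2.27 in the replicate 1 arrays of both cell types. Eif2s3y was at 2.25 in the replicate 2 arrays and at 11.36 to 12.02 in the replicate 1 arrays. By these genes the replicate 1 cells were male and the replicate 2 cells female, so the numbers did not share an animal. The sex of the cells and the replicate number therefore cannot be told apart. Of 14 B cell markers on the array, 6 were over the detection level in both CD4 control arrays, with a summed level over the 14 of 68.3 and 99.7 in CD4 controls and of 60.8 and 80.4 in CD8 controls, falling to 56.1 and 67.8 in CD4 cells with romidepsin at 30 nM and 54.3 and 69.2 with vorinostat at 10 µM. No NK or erythroid marker was over the detection level in both arrays of those groups or of their CD8 counterparts. Of 12 myeloid markers Fcgr3, itself CD4-biased, and Cd68 were over it in both CD4 controls, and Fcgr3 went from 8.73 and 9.43 to 4.18 and 6.22 with romidepsin at 30 nM. The difference between the 3′ and 5′ actin probe sets, a measure of RNA integrity, rose from 0.94 and 0.78 in CD4 controls to 1.55 and 0.97 with romidepsin at 30 nM and to 1.62 and 1.09 with vorinostat at 10 µM. In CD8 cells it went from 0.86 and 0.79 in the controls to 1.23 and 0.90 and to 1.43 and 1.16. The part of RNA integrity and of other cells in the results was not tested.

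The 250 bases upstream of the start sites of Il4, Il13 and Il5 are shown because these neighbouring genes on chromosome 11 are the type 2 cytokines among the CD4-biased genes and all 3 fell in CD4 cells with vorinostat (with romidepsin Il13 missed the threshold). They are RefSeq sequences on GRCm38.p6: Il4 at chr11:53618666-53618915 (minus strand, the farther upstream of its 2 listed starts), Il13 at chr11:53634703-53634952 (minus strand) and Il5 at chr11:53720544-53720793 (plus strand). Each is written 5′ to 3′ and ends at the base before the start of transcription. Capitals mark the GATA core AGATA and the TATA box TATAAA, each searched on both strands. Matches that overlap run together.
Il4: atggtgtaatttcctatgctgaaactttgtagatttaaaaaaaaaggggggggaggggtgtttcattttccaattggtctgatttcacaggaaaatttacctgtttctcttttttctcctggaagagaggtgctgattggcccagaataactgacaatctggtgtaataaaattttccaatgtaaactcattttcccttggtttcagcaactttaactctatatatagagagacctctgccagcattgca
Il13: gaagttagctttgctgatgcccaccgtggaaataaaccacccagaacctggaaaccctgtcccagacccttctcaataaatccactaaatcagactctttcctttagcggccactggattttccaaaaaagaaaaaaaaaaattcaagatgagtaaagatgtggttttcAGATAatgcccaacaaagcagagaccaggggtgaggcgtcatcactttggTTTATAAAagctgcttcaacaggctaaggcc
Il5: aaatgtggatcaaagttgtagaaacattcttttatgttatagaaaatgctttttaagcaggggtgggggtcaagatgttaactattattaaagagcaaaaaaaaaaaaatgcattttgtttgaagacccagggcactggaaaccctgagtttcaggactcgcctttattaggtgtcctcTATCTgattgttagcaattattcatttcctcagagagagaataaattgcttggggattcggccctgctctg
Il13 and Il5 each held 1 GATA core, Il13 held 2 overlapping TATA boxes, and neither motif was found in the window of Il4. Of the 150 CD4-biased genes, 120 had an upstream window in the table, and 22 of them (18.3%) held AGATA, against 27.0% of 27025 windows of the same length. For TATAAA the shares were 12.5% and 13.0%, and for the AP-1 site TGANTCA, also searched on both strands, 7.5% and 6.87%.

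The difference between CD4 and CD8 cells in the controls chose the genes and is given as a description. The highest score belonged to Myo6, an actin motor protein, at 8.28, followed by Il24 (7.94, a cytokine of the IL-10 family), Tgm2 (7.76, a transglutaminase that cross-links proteins), Il4 (7.27), Gja1 (7.10, the gap junction protein connexin 43), Gzma (6.95, a granzyme of cytotoxic granules), Maf (6.91), Akr1c18 (6.33), Il13 (6.14), Ecm1 (5.82), Cd4 (5.76) and Epas1 (5.76, a hypoxia-responsive transcription factor). At the limit, Creb3l2 and Sec24d were just inside with 2.00 and 1.97, and Med13l and Mboat1 just outside with 1.97 and 1.96. Of the 150 genes, 36 were under the detection level in both CD8 control arrays, so a fall in CD8 cells could not be seen for them and their differences are lower bounds. A member can carry a name from another cell type's list: Gzma is on the list of CD8 T cells, Izumo1r on that of regulatory T cells, H2-Ab1 on that of B cells and Fcgr3 on that of myeloid cells.

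The treated arrays took no part in the choice of genes, and in them the CD4 bias became smaller with dose. They are not independent of that choice, since same-numbered arrays of all groups, controls included, deviated together. The differences at the low doses are therefore no separate support for the bias seen in the controls. At romidepsin 2 nM all 150 genes were still higher in CD4 than in CD8 cells in both replicate numbers, by a median of 3.05 (3.33 and 3.06 by replicate number). The median was 1.86 at 10 nM (1.56 and 2.29) and 0.94 at 30 nM (0.74 and 1.18). With vorinostat it was 2.98 at 0.5 µM (3.02 and 2.84), 2.14 at 2 µM (1.93 and 2.26) and 1.32 at 10 µM (1.02 and 1.41). With values under the detection level set to it, the medians were 2.95, 1.83 and 0.88 for romidepsin and 2.74, 2.09 and 1.01 for vorinostat. Over all tested genes the median difference stayed between -0.07 and 0.01. In these bulk samples fewer cells of a type and less RNA per cell cannot be told apart.

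**Figure D1:**
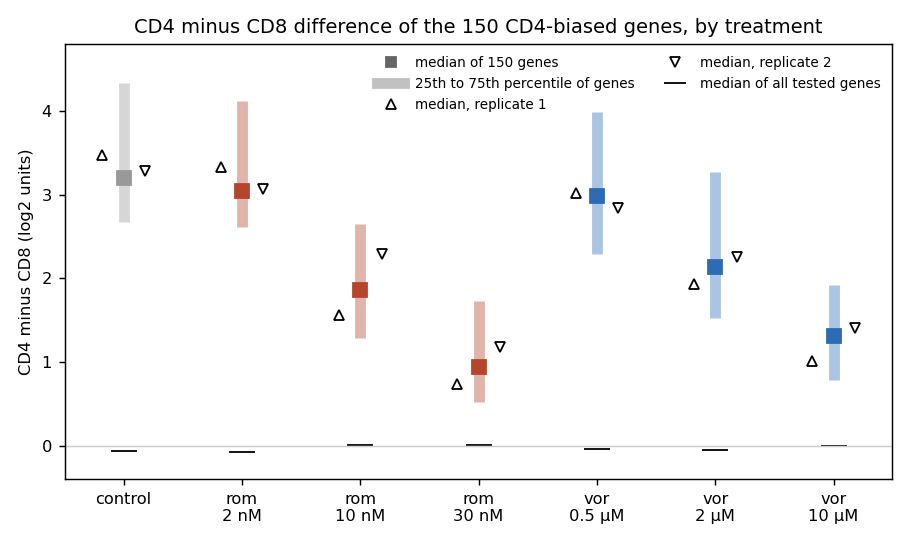
Difference between CD4 and CD8 cells (log2 units, vertical axis) over the 150 CD4-biased genes for the control and each dose. Squares are medians of the genes, bars run from the 25th to the 75th percentile of genes, triangles are the medians within replicate 1 and replicate 2, and dashes are medians of all tested genes; the grey control chose the genes. The squares go from 3.05 to 1.86 and 0.94 with romidepsin and from 2.98 to 2.14 and 1.32 with vorinostat.

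Tested gene by gene with limma at an adjusted p under 0.05, 122 of the 150 were higher in CD4 cells at romidepsin 2 nM, where 3.77% of all tested genes were. The count was 67 at 10 nM (background 2.79%) and 22 at 30 nM (0.588%). With vorinostat it was 114 at 0.5 µM (3.39%), 78 at 2 µM (1.83%) and 31 at 10 µM (0.476%). With the block the counts were 150 (17.1%), 133 (18.6%) and 80 (10.7%) for romidepsin and 150 (17.1%), 138 (12.1%) and 93 (8.79%) for vorinostat. The block takes out the shift between the replicate numbers within each cell type. Its p-values therefore do not measure how far the CD4 minus CD8 difference varied between the numbers. At 30 nM Selenbp1 passed with the block (limma adjusted p = 0.0195), although its differences were 2.55 and -0.53 in replicate 1 and 2. Both CD4 arrays lay above both CD8 arrays for all but 1 of the 150 genes at romidepsin 2 nM, for 125 and 93 at 10 and 30 nM, and for 147, 135 and 115 with vorinostat. The share of all tested genes with this separation is not given, so these counts are a description only. No CD4-biased gene was called higher in CD8 cells by limma, with or without the block. Without it 2.16%, 1.22% and 0.729% of tested genes were with rising romidepsin and 2.38%, 1.19% and 0.385% with rising vorinostat. With the block the shares were 22.2%, 16.6% and 11.1% for romidepsin and 18.5%, 14.7% and 7.67% for vorinostat. Of the 150, 59 to 146 had an unadjusted p under 0.05, in either direction, in the comparisons without the block. Leaving out CD4 replicate 2 or CD8 replicate 2 took the count to 38 or 36 at 10 nM and to 12 or 10 at 30 nM. At vorinostat 2 µM it was 47 without CD4 replicate 2 and 50 without CD8 replicate 1, and at 10 µM it was 20 and 10 without CD4 replicate 1 and 2, and 12 and 19 without CD8 replicate 1 and 2.

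The largest differences at the low doses belonged to Maf, Tgm2, Il24 and Gzma. Maf, the transcription factor that drives Il4 and Il21, was 7.85 ± 0.57 higher in CD4 cells at romidepsin 2 nM (standard error of the difference; limma adjusted p = 5.61e-07) and 8.24 ± 0.57 higher at vorinostat 0.5 µM (adjusted p = 3.41e-07). Since its CD8 arrays were under the detection level, these are bounds: at least 117-fold and at least 131-fold higher. Tgm2 was 7.75 ± 0.61 higher at romidepsin 2 nM (adjusted p = 8.78e-07), 5.86 ± 0.61 at 10 nM (adjusted p = 3.59e-05) and 6.51 ± 0.61 at vorinostat 2 µM (adjusted p = 1.16e-05). Ecm1, a secreted matrix protein, was 5.84 ± 0.80 higher at romidepsin 10 nM (adjusted p = 0.000351).

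The dose series was then followed within each cell type. Each dose was set against the lowest dose of the same drug, since the controls had been used to choose the genes; the comparisons of one drug share the lowest-dose arrays. In CD4 cells, from 2 to 30 nM romidepsin, 64 of the 150 genes fell and 3 rose, by a median of -1.49 over all 150, against 6.72% of tested genes that fell and 11.2% that rose. From 0.5 to 10 µM vorinostat 61 fell and 5 rose, with a median of -1.38 and backgrounds of 5.64% and 9.34%. The CD4-biased genes were chosen for a high level in CD4 cells, so they had more room to fall there than tested genes near the floor. The backgrounds cover all tested genes whatever their level. No share among genes of like level is given, here or for CD8 cells. With the block 109 fell and 9 rose with romidepsin (27.0% and 34.0% of tested genes) and 108 and 9 with vorinostat (25.5% and 31.7%). The middle doses moved fewer: 16 fell and 2 rose at romidepsin 10 nM (backgrounds 1.01% and 3.26%, median -0.72), and with the block 72 fell and 5 rose (17.8% and 22.2%). At vorinostat 2 µM limma called none in either direction (0.0101% fell and 0% rose among tested genes, median -0.25), where 19 had an unadjusted p under 0.05, and with the block 15 fell and 2 rose (2.42% and 2.83%).

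These counts, in fits without the block, leaned on single arrays. Without CD4 replicate 1 at romidepsin 30 nM 35 genes fell, and without replicate 1 at 2 nM 39 did. Without replicate 1 at vorinostat 10 µM 31 fell, and without replicate 1 at 0.5 µM 40 did. In the fits that left out 1 array at a time, 30 of the 64 and 28 of the 61 were called every time. At romidepsin 10 nM only 2 of the 16 were called every time, and the count was 3 without replicate 1 at 10 nM, 4 and 9 without replicate 1 and 2 at 2 nM.

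Of the 6 functional lists examined, which hold 27 of the 150 genes, that of cytokines had the most members, 11 (Il4, Il5, Il10, Il13, Il21, Il24, Lif, Osm, Lta, Tgfb3 and Ebi3). From 2 to 30 nM romidepsin 9 of the 11 fell in CD4 cells, and from 0.5 to 10 µM vorinostat 10 did; with the block 11 and 10 fell. In the wider list of 24 tested cytokine and chemokine genes, which holds these 11, 11 fell and 1 rose with romidepsin, and 12 fell and 1 rose with vorinostat. None of the 11 was called as risen in CD4 cells.

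Il24 had the largest fall. In CD4 cells it was at 10.21 and 10.21 in the controls, at 9.62 and 10.39, 6.0 and 8.58, and 2.82 and 6.01 with romidepsin at 2, 10 and 30 nM, and at 9.95 and 10.14, 8.68 and 9.22, and 2.76 and 5.05 with vorinostat at 0.5, 2 and 10 µM. All 14 CD8 arrays were between 2.25 and 2.28, the floor of the array. The fall from 2 to 30 nM was -5.59 ± 0.86 (limma adjusted p = 0.000331) and from 0.5 to 10 µM -6.14 ± 0.86 (adjusted p = 0.000247). Replicate 1 was the lower array at every dose of both drugs, and at the top doses neither array overlapped those of the low dose.

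Il4, the signature cytokine of type 2 help, followed the same course. Its CD4 arrays read 9.59 and 10.16 in the controls, 8.87 and 9.93, 5.01 and 8.03, and 3.33 and 6.33 with rising romidepsin, and 8.93 and 9.63, 6.46 and 8.67, and 2.71 and 5.55 with rising vorinostat. It fell by 4.56 ± 1.03 from 2 to 30 nM (limma adjusted p = 0.00517) and by 5.15 ± 1.03 from 0.5 to 10 µM (adjusted p = 0.00272), and each call was lost without replicate 1 of the top dose (adjusted p = 0.107 and 0.0602). CD8 arrays stayed between 2.25 and 2.36.

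Il5, which drives eosinophils, was at the floor of the array in replicate 1 at both middle doses. In CD4 cells it was at 8.04 and 7.76 in the controls, 5.62 and 7.07, 2.27 and 5.20, and 2.27 and 2.88 with romidepsin, and 6.88 and 6.98, 2.27 and 4.21, and 2.27 and 2.26 with vorinostat. At 30 nM and at 10 µM both arrays were under the detection level, which makes the fall from the lowest dose at least 4.21-fold and at least 6.30-fold (limma adjusted p = 0.00131 and 0.000385). The step to 10 nM passed (-2.61 ± 0.70, adjusted p = 0.0452) but was lost without any 1 of 3 of the 4 arrays. Il13 was at 8.49 and 8.66 in the controls and dropped in 1 array with romidepsin: 8.02 and 8.58, 6.14 and 8.52, and 2.67 and 7.60. Its romidepsin step of -3.17 ± 1.11 missed the threshold (adjusted p = 0.0598; 0.0014 with the block). With vorinostat it went from 7.64 and 8.68 at 0.5 µM to 2.33 and 4.16 at 10 µM, at least 14.8-fold lower (adjusted p = 0.00635).

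Il10 stayed at its control level in CD4 cells at the low doses and at vorinostat 2 µM. It was at 8.68 and 8.18 in the controls, 8.78 and 8.24, 6.84 and 8.17, and 3.54 and 6.65 with romidepsin, and 8.82 and 8.12, 8.49 and 8.09, and 2.35 and 4.01 with vorinostat. From 0.5 to 10 µM it fell at least 18.4-fold (limma adjusted p = 0.000197), and from 2 to 30 nM by 3.42 ± 0.71 (adjusted p = 0.00318; 0.0554 without replicate 1 at 30 nM). Of the other cytokines that fell with both drugs, Il21, a helper signal to B cells, fell by 3.21 ± 0.62 and 4.18 ± 0.62, Lif by 4.39 ± 0.61 and 4.11 ± 0.61, Osm by 2.76 ± 0.72 and 3.06 ± 0.72, and Ebi3, a subunit shared by IL-27 and IL-35, by 2.81 ± 0.55 and 3.00 ± 0.55. Tgfb3 fell at least 5.98-fold and at least 5.50-fold (adjusted p = 0.00347 and 0.00488).

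Lta, which encodes lymphotoxin alpha, went another way. In CD4 cells it was at 11.64 and 10.49 in the controls, 12.54 and 11.30 at 2 nM, 12.69 and 11.57 at 10 nM and 10.84 and 9.56 at 30 nM, and its step of -1.72 ± 1.11 from 2 to 30 nM missed the threshold (limma adjusted p = 0.349; 0.0039 with the block). In CD8 cells it went from 9.0 and 7.91 in the controls to 9.61 and 8.16, 11.87 and 9.24, and 12.49 and 10.06 with romidepsin, a step of 2.39 ± 1.11 from 2 to 30 nM (adjusted p = 0.24; 0.00061 with the block). At 30 nM it had the lowest CD4 minus CD8 value of the 150, -1.07, which was not called. With vorinostat its CD8 arrays read 11.76 and 9.20, 12.85 and 10.61, and 7.95 and 7.96 at 0.5, 2 and 10 µM, so the middle dose was the highest and the top dose lay near the control.

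The coreceptor and lineage factors among the 150 were Cd4, Gata3, Maf, Nfil3 and Batf. From 2 to 30 nM romidepsin 4 of the 5 fell in CD4 cells, and from 0.5 to 10 µM vorinostat 3 did; all 5 fell with the block. In the list of 19 tested lineage genes that holds them, 9 fell with romidepsin and 5 with vorinostat, and none rose. Cd4, the coreceptor that defines the cells, was at 8.47 and 7.84 at romidepsin 2 nM, 4.83 and 7.12 at 10 nM and 2.75 and 4.14 at 30 nM. Both arrays at 30 nM were under the detection level, which is at least 14.8-fold below 2 nM (limma adjusted p = 0.000183). With vorinostat Cd4 read 8.29 and 7.89, 6.98 and 7.62, and 2.39 and 4.72, a fall of 4.54 ± 0.67 from 0.5 to 10 µM (adjusted p = 0.000375). At both top doses the CD4 arrays still lay above the CD8 arrays, by a mean of 1.16 and 1.29, which limma did not call.

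Maf moved in opposite directions in the cell types. In CD4 cells it fell from 11.76 and 10.52 at 2 nM to 8.66 and 9.19 at 30 nM (-2.22 ± 0.57, limma adjusted p = 0.0122), and from 11.78 and 10.82 to 8.67 and 9.41 with vorinostat (-2.26 ± 0.57, adjusted p = 0.0128). In CD8 cells it went from 2.71 and 3.88 to 5.41 and 5.29 with romidepsin, at least 2.12-fold higher (adjusted p = 0.0339), and from 2.76 and 3.36 to 5.17 and 5.44 with vorinostat, at least 2.05-fold (adjusted p = 0.0128). Nfil3, a basic leucine zipper factor, fell by 1.16 ± 0.37 in CD4 cells from 2 to 30 nM (adjusted p = 0.0368) while it rose by 1.85 ± 0.37 in CD8 cells (adjusted p = 0.0046). Batf, an AP-1 family factor needed for several helper types, fell by 2.33 ± 0.77 and 2.39 ± 0.77 in CD4 cells with the drugs (adjusted p = 0.0464 and 0.0474), and both calls were lost without any 1 of the arrays compared.

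Gata3, the factor that specifies type 2 helper cells, showed a fall in each replicate but a wide spread between them. Its CD4 arrays were at 11.14 and 12.69 at romidepsin 2 nM, 9.73 and 11.75 at 10 nM and 8.72 and 10.54 at 30 nM. The step to 30 nM of -2.29 ± 1.11 missed the threshold without the block (limma adjusted p = 0.184) and passed with it (adjusted p = 2.28e-07), as did the step to vorinostat 10 µM of -2.02 ± 1.11 (adjusted p = 0.273 and 8.8e-07). Within each replicate number the step was -2.42 and -2.15 with romidepsin and -2.22 and -1.81 with vorinostat.

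**Figure D2:**
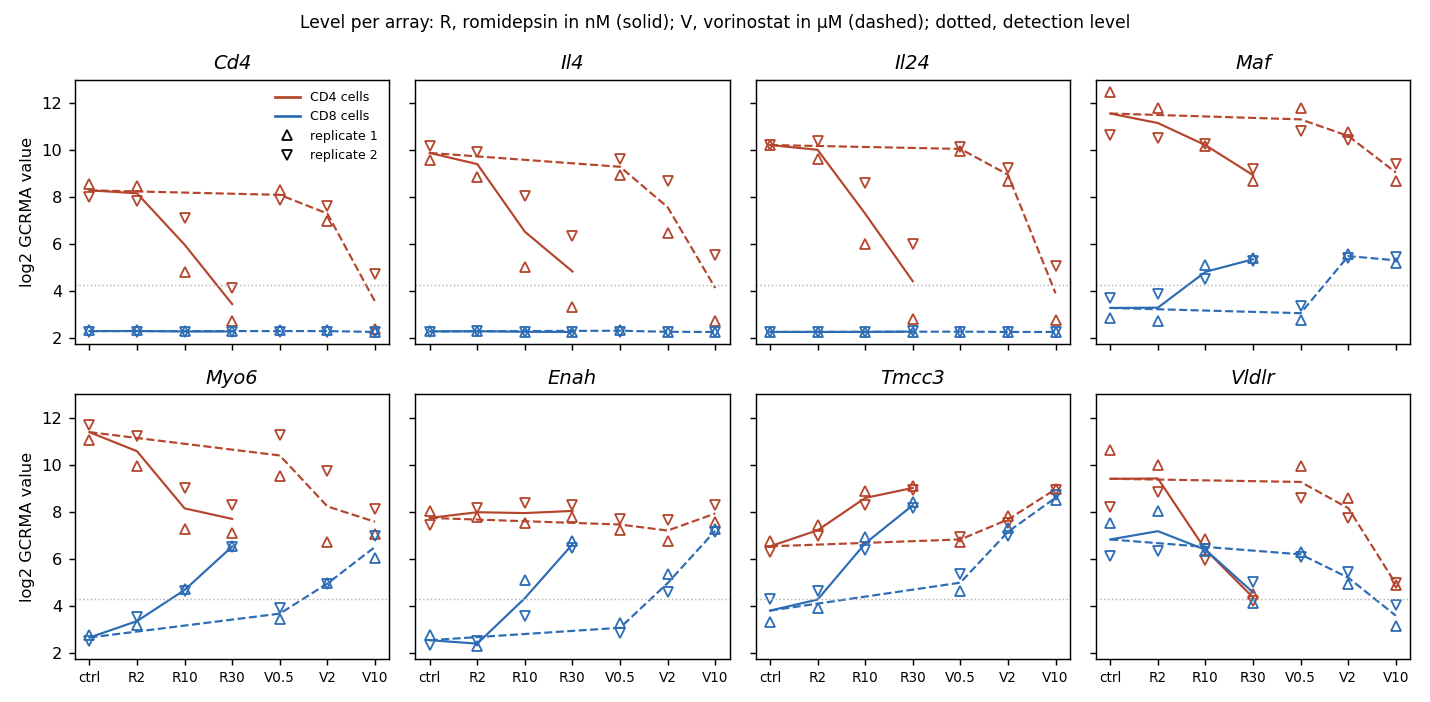
Level (log2 GCRMA value, vertical axis) of 8 CD4-biased genes in every array by treatment, red for CD4 and blue for CD8 cells, with upward and downward triangles for replicate 1 and 2, lines through the means of 2 arrays (solid for romidepsin, dashed for vorinostat) and a dotted line at the detection level of 4.27. Cd4, Il4 and Il24 drop in CD4 cells over a flat CD8 floor, Maf and Myo6 fall in CD4 and rise in CD8 cells, Enah and Tmcc3 rise in CD8 cells, and Vldlr falls in both.

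Cytokine receptors and their feedback inhibitors gave 9 of the 150 genes. In CD4 cells 4 of them fell from 2 to 30 nM romidepsin (Il1r2, Il4ra, Socs3 and Cish) and 2 from 0.5 to 10 µM vorinostat (Il1r2 and Il4ra); with the block 9 and 8 fell. Il4ra, the receptor chain for IL-4 and IL-13, went from 10.73 and 10.96 to 8.22 and 9.24 with romidepsin (-2.11 ± 0.53, limma adjusted p = 0.0101) and from 10.66 and 11.07 to 8.88 and 9.44 with vorinostat (-1.71 ± 0.53, adjusted p = 0.0387). Il1r2, a decoy receptor for IL-1, fell by 2.34 ± 0.58 and 3.08 ± 0.58. In the list of 27 tested receptor and signalling genes 14 fell with romidepsin and 10 with vorinostat, and none rose. Socs3, which dampens STAT3 signalling, fell by 1.13 ± 0.27 in CD4 cells from 2 to 30 nM (adjusted p = 0.00795) and rose by 1.02 ± 0.27 in CD8 cells (adjusted p = 0.0268). Il12rb1, a chain of the IL-12 and IL-23 receptors, rose in CD8 cells from 6.73 and 6.89 to 8.41 and 8.32 (1.55 ± 0.33, adjusted p = 0.008), while its CD4 arrays went from 8.47 and 8.80 to 7.51 and 8.17 (-0.79 ± 0.33, adjusted p = 0.118).

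The other functional lists gave few CD4-biased genes. Slamf1, a costimulatory receptor, was the one member in the list of 22 tested helper ligands and costimulatory receptors, of which 14 fell with romidepsin and 12 with vorinostat in CD4 cells. It fell by 2.26 ± 0.63 from 2 to 30 nM (limma adjusted p = 0.0201), and its vorinostat step of -1.41 ± 0.63 missed the threshold (adjusted p = 0.158; 0.0023 with the block). Cysltr1, the receptor for cysteinyl leukotrienes, was the one member among 19 tested chemokine receptor and adhesion genes, of which 5 fell with each drug. Its CD4 arrays read 7.36 and 6.17, 2.54 and 3.36, and 2.29 and 2.36 with rising romidepsin, at least 5.63-fold lower at 10 nM (adjusted p = 0.00201) and at 30 nM (adjusted p = 0.000114). With vorinostat they read 7.87 and 5.88, 3.46 and 3.86, and 2.27 and 2.34, at least 6.08-fold lower at 10 µM (adjusted p = 0.000158). Of 24 tested T cell receptor genes none was CD4-biased, and 12 fell with romidepsin and 9 with vorinostat in CD4 cells.

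Serpinf1, a secreted serpin, and Vldlr, a lipoprotein receptor, were among the largest falls outside these lists. Serpinf1 went from 10.48 and 10.56 to 5.86 and 8.02 and to 4.28 and 6.63 in CD4 cells with romidepsin (-5.06 ± 0.87 at 30 nM, limma adjusted p = 0.000739), and from 10.62 and 10.42 to 8.08 and 8.60 and to 3.82 and 6.41 with vorinostat (-5.40 ± 0.87, adjusted p = 0.000617). Vldlr fell in both cell types. Its CD4 arrays went from 10.00 and 8.82 to 4.49 and 4.2 with romidepsin (-5.06 ± 0.76, adjusted p = 0.000273) and its CD8 arrays from 8.01 and 6.33 to 4.11 and 5.01 (-2.61 ± 0.76, adjusted p = 0.0431), and at 30 nM the cell types no longer differed beyond their spread. The mean of all Vldlr probe sets gave a CD8 step of -0.83, so that call rests on the brightest probe set. Stc2, a secreted glycoprotein, fell by 3.11 ± 0.57 at 10 nM (adjusted p = 0.00572) and by 3.35 ± 0.57 at 30 nM (adjusted p = 0.000704).

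Few CD4-biased genes rose in CD4 cells. Tmcc3, Pkp2 and Kif3a rose with both drugs, and Mt1 and Mt2 rose with vorinostat. Tmcc3, a membrane protein gene, went from 7.43 and 6.98 to 8.89 and 8.28 and to 9.11 and 8.91 with romidepsin (1.80 ± 0.36 at 30 nM, limma adjusted p = 0.00215). Pkp2, which encodes the desmosomal protein plakophilin 2, rose by 1.35 ± 0.30 (adjusted p = 0.00503) and Kif3a, a kinesin motor subunit of the cilium, by 1.39 ± 0.35 (adjusted p = 0.0104). From 0.5 to 10 µM vorinostat they rose by 2.13 ± 0.36, 1.70 ± 0.30 and 1.29 ± 0.35 (adjusted p = 0.000812, 0.00122 and 0.0195). All 3 rose in CD8 cells as well, by more on the log2 scale: Tmcc3 by 4.01 ± 0.36, Pkp2 by 3.06 ± 0.30 and Kif3a by 1.83 ± 0.35 from 2 to 30 nM (adjusted p = 6.33e-06, 1.35e-05 and 0.00371). The difference between the cell types' steps passed for Tmcc3 (-2.21 ± 0.50, adjusted p = 0.0474, lost without any 1 array) and missed for Pkp2 (-1.72 ± 0.43, adjusted p = 0.0822; 0.0043 with the block).

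In CD8 cells more of the CD4-biased genes rose than fell with romidepsin, while with vorinostat at its top dose as many lay above as below the lowest dose (74 and 74). From 2 to 30 nM romidepsin 34 rose and 2 fell, with a median of 0.55 over all 150, against 6.07% of tested genes that rose and 2.15% that fell. From 0.5 to 10 µM vorinostat 29 rose and 8 fell, with a median of 0.00 and backgrounds of 10.2% and 5.88%. With the block 70 rose and 8 fell with romidepsin (25.7% and 23.0%) and 50 rose and 27 fell with vorinostat (31.6% and 26.8%), so with the block the share of risen genes at vorinostat 10 µM lay near the background. At the middle doses 2 rose and none fell with romidepsin at 10 nM (0.213% and 0%, with 37 at an unadjusted p under 0.05; with the block 34 rose and none fell, 3.31% and 1.97%), and 4 rose and none fell with vorinostat at 2 µM (0.162% and 0%, with 25 at an unadjusted p under 0.05; with the block 35 rose and 1 fell, 7.40% and 5.20%). Without CD8 replicate 1 at 30 nM 14 rose and without replicate 1 at 2 nM 17, and without replicate 1 at 0.5 µM 15 rose with vorinostat. In the fits that left out 1 array, 12 of the 34 and 14 of the 29 were called every time.

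Enah, a regulator of actin filament growth, had the largest rise with romidepsin in CD8 cells. It was at 2.76 and 2.31 in the CD8 controls, 2.27 and 2.51, 5.08 and 3.56, and 6.75 and 6.47 with romidepsin, and 3.27 and 2.85, 5.33 and 4.6, and 7.25 and 7.12 with vorinostat. Against the lowest dose it was at least 5.07-fold higher at 30 nM (limma adjusted p = 4.52e-05) and at least 7.56-fold at 10 µM (adjusted p = 4.54e-05). Its 14 CD4 arrays stayed between 6.73 and 8.36, so the gap of Enah changed with its CD8 values: at vorinostat 10 µM the CD4 arrays read 7.55 and 8.30.

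Mt1 and Mt2, which encode metal-binding metallothioneins and share sequence that the probes may not separate, nearly closed their gap at vorinostat 10 µM. Mt2 went in CD8 cells from 9.05 and 9.02 at 0.5 µM to 13.30 and 12.86, a rise of 4.05 ± 0.37 (limma adjusted p = 7.77e-06), while its CD4 arrays went from 11.28 and 11.57 to 12.35 and 12.81 (1.15 ± 0.37, adjusted p = 0.0447). At 10 µM both CD8 arrays lay above both CD4 arrays, by a mean of 0.51, a difference that was not called. Mt1 rose by 3.84 ± 0.30 in CD8 cells (adjusted p = 3.95e-06) and by 1.06 ± 0.30 in CD4 cells (adjusted p = 0.0247).

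Myo6 fell in CD4 cells and rose in CD8 cells. Its CD4 arrays were at 11.05 and 11.70 in the controls and at 9.93 and 11.21, 7.28 and 9.0, and 7.11 and 8.27 with romidepsin, and its CD8 arrays at 2.78 and 2.52, 3.16 and 3.53, 4.71 and 4.63, and 6.52 and 6.51. From 2 to 30 nM this was -2.88 ± 0.82 in CD4 cells (limma adjusted p = 0.0227) and at least 4.75-fold higher in CD8 cells (adjusted p = 0.024). With vorinostat it read 9.53 and 11.24, 6.70 and 9.75, and 7.03 and 8.11 in CD4 cells and 3.42 and 3.91, 4.97 and 4.91, and 6.05 and 6.95 in CD8 cells. The levels in the cell types approached each other from both sides but did not overlap at any dose.

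Fscn1, an actin-bundling protein, and Irf4, a transcription factor induced by T cell receptor signals, reached CD4 levels in CD8 cells. Fscn1 rose in CD8 cells from 9.03 and 7.58 to 12.28 and 11.38 with romidepsin (3.52 ± 0.66, limma adjusted p = 0.00309), where its CD4 arrays were at 11.70 and 11.69. Irf4 rose in CD8 cells from 10.67 and 10.50 to 12.26 and 12.22 (1.66 ± 0.21, adjusted p = 0.000166), beside 12.13 and 12.63 in CD4 cells. Prdm1, which encodes the terminal differentiation factor BLIMP1, rose by 2.23 ± 0.53 in CD8 cells (adjusted p = 0.0155), and Epcam, an adhesion molecule, by 3.70 ± 0.90 from 0.5 to 10 µM vorinostat (adjusted p = 0.0101).

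The few members that fell in CD8 cells included Vldlr and Izumo1r, the folate receptor 4 of regulatory and anergic CD4 cells, with both drugs. Izumo1r fell in CD8 cells from 7.67 and 8.01 to 5.64 and 6.90 with romidepsin (-1.57 ± 0.41, limma adjusted p = 0.0254) and from 7.25 and 7.43 to 4.42 and 5.60 with vorinostat (-2.33 ± 0.41, adjusted p = 0.00124). In CD4 cells it fell by 2.71 ± 0.41 and 2.83 ± 0.41 (adjusted p = 0.000312 and 0.000315). Of the 10 regulatory T cell markers on the array 9 were over the detection level in both CD4 controls and 8 with either drug at its top dose. The marker under it in the CD4 controls was Foxp3, at 2.34 and 3.59. The summed level of the 10 went from 86.0 and 85.6 to 70.9 and 72.2 with romidepsin at 30 nM and to 71.9 and 71.7 with vorinostat at 10 µM. In both CD8 controls 8 of the 10 were over the detection level as well. There the summed level went from 74.9 and 73.3 to 68.5 and 71.1 and to 63.7 and 65.4. Whether these levels bear on Izumo1r was not tested. With vorinostat Emp1, a membrane protein gene, fell by 3.05 ± 0.43 (adjusted p = 0.000223) and Lif at least 4.22-fold (adjusted p = 0.0189) in CD8 cells. Gm17767 fell at least 4.18-fold there (adjusted p = 0.042).

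H2-Ab1, an MHC class II gene that B cells express, fell in CD4 cells from 10.81 and 10.64 to 8.89 and 9.30 (-1.63 ± 0.28, limma adjusted p = 0.000665), and was at 8.09 and 8.64, then 8.92 and 9.46, in CD8 cells. Fcmr, the receptor for IgM, which B cells also express, read 8.18 and 9.04, then 4.59 and 6.68, in CD4 cells (-2.97 ± 1.05, adjusted p = 0.0618). The B cell marker Ms4a1 was at 2.42 and 8.16 in the CD4 controls and at 2.28 and 4.73 with romidepsin at 30 nM, while Cd79b, another B cell marker, was at 6.57 and 9.87 in these controls and H2-Ab1 at 10.56 and 10.65. In replicate 1 of the CD4 cells Cd79b, Ighm and H2-Eb1 went from 6.57, 7.5 and 7.35 in the control to 3.46, 3.71 and 5.80 with romidepsin at 30 nM. Cd74, H2-Aa and Ebf1 moved less there, from 7.65, 7.74 and 4.38 to 7.08, 6.95 and 4.27. Cd79a, Ms4a1, Cd22, Blnk, Pax5, Cr2 and Fcer2a were already under the detection level in that control array. In the replicate 1 CD8 control Cd79b and Ighm were at 6.77 and 9.02. The part of B cells in these values was not tested.

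Sorted by both cell types, the step from 2 to 30 nM romidepsin split the 150 into 55 genes that fell in CD4 cells alone, 24 that rose in CD8 cells alone, 7 that fell in CD4 and rose in CD8 cells (Myo6, Tgm2, Maf, Nfil3, Socs3, Dst and Pmepa1), 2 that fell in both (Izumo1r and Vldlr), 3 that rose in both (Tmcc3, Pkp2 and Kif3a) and 59 that passed in neither. A further Tgm2 probe set went the other way in CD8 cells (-0.41, against 2.15 for the brightest). A call in one cell type alone does not show that the cell types differ. With vorinostat from 0.5 to 10 µM the classes held 51, 21, 3 (Myo6, Maf and Dst), 7 (Lif, Igfbp4, Izumo1r, Bcl3, Emp1, Ebi3 and Vldlr), 5 (Mt1, Mt2, Tmcc3, Pkp2 and Kif3a) and 62 genes, and Gm17767 fell in CD8 cells alone. With the block the romidepsin classes held 71, 31, 30, 8, 9 and 1 genes and the vorinostat classes 66, 25, 16, 26, 9 and 7. The drugs called largely the same genes in CD4 cells: 56 fell with both, 87.5% of the romidepsin list and 91.8% of the vorinostat list. In CD8 cells 25 rose with both, 73.5% and 86.2%. The overlap of the drugs over all tested genes is not given, so it is not known to be particular to the CD4-biased genes. No array served both drugs here, though same-numbered arrays deviated together.

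**Figure D3:**
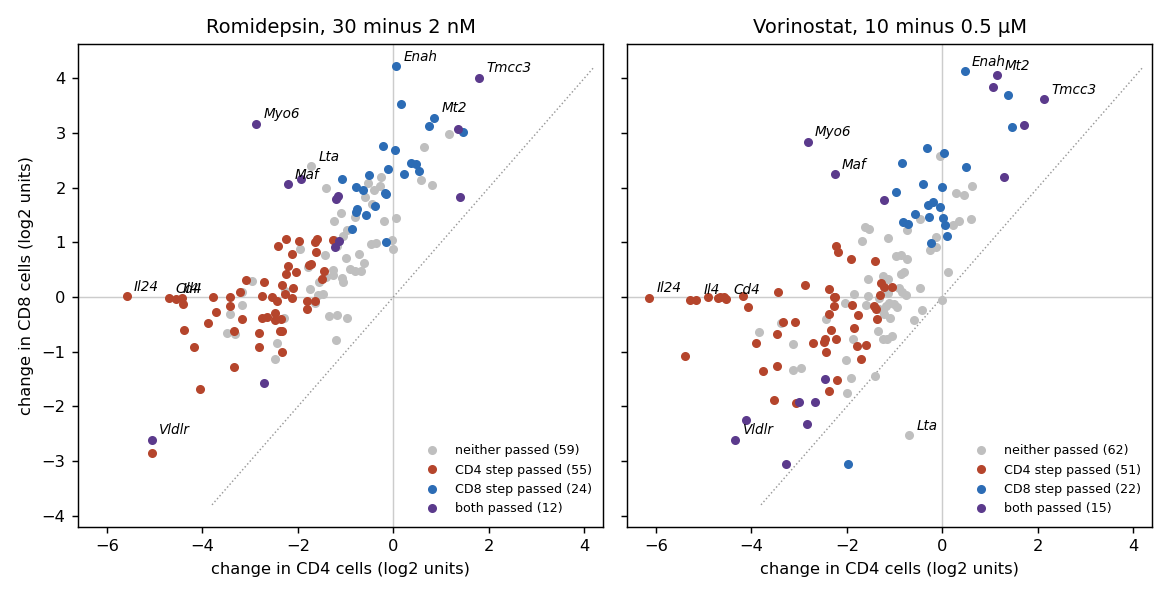
Change of each of the 150 CD4-biased genes from the lowest to the highest dose (log2 units), in CD4 cells on the horizontal and CD8 cells on the vertical axis, for romidepsin on the left and vorinostat on the right. Colours give which step passed limma at an adjusted p under 0.05, with the number of genes in brackets, and the dotted line marks equal change. All genes with romidepsin, and all but 4 with vorinostat, lie above the line of equal change.

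The narrowing of the gap was tested by the difference between the cell types' dose steps. The 150 genes were chosen for a wide gap in the controls, while the backgrounds cover all tested genes whatever their gap. No share among genes with a like gap is given. From 2 to 30 nM romidepsin the CD4 minus CD8 difference became smaller in both replicate numbers for all but 1 of the 150 genes, by a median of -2.28, and 41 passed limma at an adjusted p under 0.05 (background 0.811%; with the block 129 and 8.77%). From 0.5 to 10 µM vorinostat the median change was -1.64 and 14 passed (0.223%; with the block 90 and 3.74%). At the middle doses the medians were -1.33 and -0.74; no gene passed (0.0203% and 0% of tested genes), with 56 and 29 at an unadjusted p under 0.05, and with the block 48 and 6 passed (1.48% and 0.142%). None of the 150 was called as widened at any dose, with or without the block. Without the block few tested genes were: 0.0304% and 0.172% at 10 and 30 nM, and 0% and 0.0304% at 2 and 10 µM. The absence of such calls there lies near the background. With the block the shares were 1.74%, 10.0%, 0.0101% and 2.96%. For a gene at the floor in CD8 cells, such as Il24 or Cd4, the change is that in CD4 cells alone. Of the 41, the fall in CD4 cells was the larger part for 22 and the rise in CD8 cells for 19, and of the 14 it was 7 and 7. With the block it was 80 and 49 of the 129, and 60 and 30 of the 90.

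The calls on the gap depended on which array was left out, in fits without the block. Such a fit leaves 1 replicate number in a group, so the shift between the replicate numbers enters its comparison. With romidepsin the count was 5 and 37 without CD4 replicate 1 and 2 at 30 nM, 16 and 14 without CD8 replicate 1 and 2 at 30 nM, 12 and 25 without CD4 replicate 1 and 2 at 2 nM, and 9 and 20 without CD8 replicate 1 and 2 at 2 nM. With vorinostat it was 0 without replicate 1 of either cell type at either dose, 13 and 2 without CD4 and CD8 replicate 2 at 10 µM and 3 without replicate 2 of either cell type at 0.5 µM. The mean of all probe sets of a gene gave 23 and 5. Enah, whose gap changed by -4.17 ± 0.66 with romidepsin (limma adjusted p = 0.00764), lost its call in 1 of 8 such fits (adjusted p = 0.0649).

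Some genes kept their CD4 bias at the top doses. At both romidepsin 30 nM and vorinostat 10 µM 21 genes were still called higher in CD4 cells, 95.5% of the 22 at 30 nM and 67.7% of the 31 at 10 µM. The same overlap over all tested genes is not given. Tgm1, a transglutaminase, kept the CD8 floor (3.07 and 3.14 at 30 nM) and read 8.13 and 6.42 in CD4 cells there, at least 8.03-fold higher (limma adjusted p = 0.00279), and 8.26 and 7.14 at vorinostat 10 µM, at least 10.8-fold higher (adjusted p = 0.00113). Gja1 was 3.98 ± 0.65 and 4.55 ± 0.65 higher in CD4 cells (adjusted p = 0.00393 and 0.00124), but with the mean of its probe sets both values, 2.57 and 2.94, were no longer called. Gzma was at 6.67 and 9.39 in CD4 cells at 30 nM beside 2.33 and 3.51 in CD8 cells, at least 13.5-fold higher (adjusted p = 0.0112; 0.149 at most without 1 array), and Tgm2 was 4.52 ± 0.61 higher at vorinostat 10 µM (adjusted p = 0.000863). The other genes of this set included Maf, Nfil3 and Socs3, which moved in opposite directions in the cell types with romidepsin and still did not meet.

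Against the controls, which chose the genes, the drug values are a description. Counted as a change past 1 unit in both replicate numbers, no CD4-biased gene fell or rose in CD4 cells at romidepsin 2 nM or vorinostat 0.5 µM (0.0101% and 0% of tested genes fell, 0.344% and 0.203% rose). At the middle and top doses of romidepsin 35 and 80 fell (4.38% and 10.2%) and 7 and 6 rose (5.90% and 11.4%), and of vorinostat 20 and 82 fell (1.95% and 9.97%) and 7 and 6 rose (2.20% and 8.95%). In CD8 cells 12 genes had already risen at vorinostat 0.5 µM (0.618%), the reference of the vorinostat steps, and none at romidepsin 2 nM (0.0101%), where 1 fell (0.0101%). In these cells 38 and 57 rose with romidepsin at 10 and 30 nM (2.43% and 7.60%) and 55 and 50 with vorinostat at 2 and 10 µM (4.05% and 10.5%), and 1 and 3 fell with romidepsin (0.162% and 4.12%) and 2 and 12 with vorinostat (2.14% and 10.4%). The CD8 median was 0.70 and 0.69 with romidepsin and 0.74 and 0.31 with vorinostat at these doses. Marcks, an actin-linked substrate of protein kinase C, had the largest mean rise of the 150 in CD8 cells at the middle doses, 3.24 at 10 nM and 3.77 at 2 µM.

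**Figure D4:**
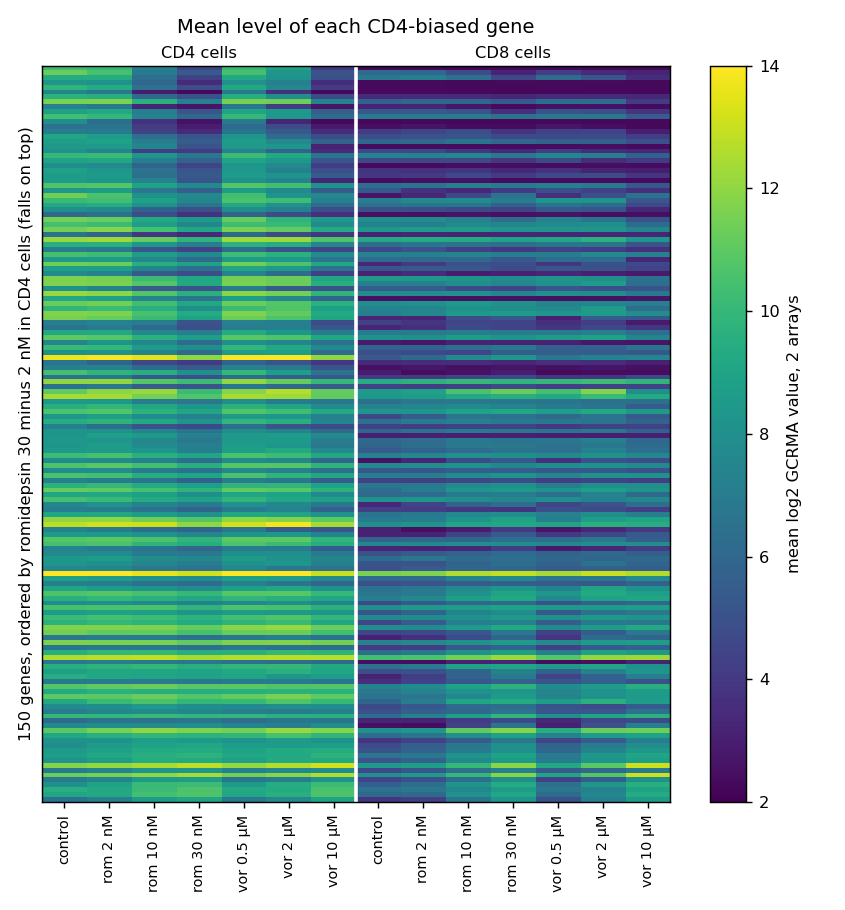
Mean level (log2 GCRMA value, mean of 2 arrays, colour scale) of the 150 CD4-biased genes in rows, in CD4 cells on the left and CD8 cells on the right, by treatment in columns. Rows run from the largest fall to the largest rise between romidepsin 2 and 30 nM in CD4 cells; the upper rows darken at the top doses in CD4 cells over a dark CD8 side, and the lowest rows brighten in CD8 cells.

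Several CD4-biased genes are neighbours in the genome. All but 1 of the 150 were placed in the RefSeq table, and 41 belong to 23 pairs with at most 4 protein-coding genes between them. The largest run is on chromosome 11, in the order Septin8, Kif3a, Il4, Il13 and, after 1 other gene, Il5. Septin8 read 6.59 and 6.33 at romidepsin 2 nM and 3.84 and 3.58 at 30 nM in CD4 cells, a fall of 2.75 ± 0.30 (limma adjusted p = 2.21e-05). Kif3a, between Septin8 and Il4, was at 9.41 and 9.07 at 2 nM and at 10.69 and 10.57 at 30 nM in CD4 cells and rose in both cell types, so the run did not move as one. Elsewhere Castor1, Osm and Lif lie side by side and all 3 fell in CD4 cells with both drugs, by 1.26 ± 0.34, 2.76 ± 0.72 and 4.39 ± 0.61 with romidepsin. Il24 and Il10, with 2 genes between them on chromosome 1, both fell, and their neighbour Fcmr missed the threshold without the block.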

How the data were processed

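Expression was measured on 28 Affymetrix mouse arrays. The authors made the deposited values, read here as log2 values, with GCRMA, per the submitters' processing notes. The base was taken from their range, since it is not given in the sources used here. GCRMA leaves probe sets without signal at a floor, so small differences near it have no order. The lowest value was 2.27 in the replicate 1 arrays and 2.25 in the replicate 2 arrays. Whether the replicate numbers were processed together was not tested. Of 45101 probe sets 34945 named 1 gene, and the brightest stood for each of 18193 genes. Linear models were fitted with limma 3.58.1 in R 4.3.3 to 14 group means (14 residual degrees of freedom), with Benjamini-Hochberg adjustment over 9870 genes and a threshold of 0.05. Tests used treated arrays only: the CD4 minus CD8 difference at each dose, the steps from the lowest dose, and the difference between the steps, 18 contrasts in all, with a median 95% half-width of 1.22 for differences and steps. Values under the detection level in both arrays of a group gave lower bounds. Same-numbered arrays deviated together, with correlations of 0.722 to 0.958 over 91 pairs of groups, so a fit with the replicate number as a block within cell type (12 residual degrees of freedom) was set beside the main one. The number of arrays limits the precision.

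Genes were named by score, by the largest called gaps, steps and gap changes, by membership of a functional list, and by the largest changes from control. Genes named in the classes of steps or among neighbours (Septin8, Castor1, Dst and others), H2-Ab1, Fcmr and Selenbp1 were chosen after their values were seen. The members and lists were chosen with earlier results of these data known. Alternatives were quantile normalization, no filter on low values, the mean of a gene's probe sets, the block, and leaving out each array. The fits that left out an array did not use the block.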

Additional observations from a re-analysis of the deposited data

Results flagged for a closer look

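The dose step differed between CD4 and CD8 cells by the test of that difference in limma for the genes given here, each with the change of its CD4 minus CD8 difference. From 2 to 30 nM romidepsin it changed by -6.05 for Myo6, -5.60 for Il24, -4.69 for Cd4, -4.43 for Cysltr1 and -4.28 for Maf. From 0.5 to 10 µM vorinostat it changed by -6.13 for Il24, -5.25 for Il10, -4.56 for Cysltr1, -4.50 for Maf and -3.66 for Enah. These sizes are of measured values, not bounds, and each rests on at least 1 group under the detection level. Il24, Il10, Cd4 and Cysltr1 were under it in CD8 cells at both doses, where a fall cannot be seen. Myo6, Maf and Enah were under it in CD8 cells at the lowest dose. Both CD4 arrays were also under it for Cysltr1 at both top doses, for Cd4 at 30 nM and for Il10 at 10 µM.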

How the results depend on the processing

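Pairing the arrays by replicate block raised the counts of called genes. The CD4 minus CD8 difference was called for 133 and 80 genes at romidepsin 10 and 30 nM and for 138 and 93 at vorinostat 2 and 10 µM. For this difference the p-values with the block leave out its shift between the replicate numbers. In CD4 cells 5 rose and 72 fell at 10 nM, 9 and 109 at 30 nM, 2 and 15 at 2 µM, and 9 and 108 at 10 µM. In CD8 cells 34 rose at 10 nM, 70 rose and 8 fell at 30 nM, 35 and 1 at 2 µM, and 50 and 27 at 10 µM. The narrowing of the gap was called for 48 and 129 genes with romidepsin and for 6 and 90 with vorinostat. No call made without the block was lost with it. Quantile normalization gave 1 rise and 30 falls in CD4 cells at 10 nM, 1 fall there at 2 µM, 1 rise in CD8 cells at each middle dose, and 1 narrowed gap at 10 nM. Without the filter 1 gene rose in CD4 and 4 rose in CD8 cells at 10 nM, 1 fell in CD8 cells at 30 nM and 5 at 10 µM, and 1 gap narrowed at 10 nM. With the mean of probe sets 20 differences were called at 10 µM, 1 gene rose in CD4 cells at 10 nM, 1 fell in CD8 cells at 30 nM, 0 rose there at 2 µM and 5 fell at 10 µM, and 23 and 5 gaps narrowed at the top doses.

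With 1 array left out, the difference was called for 98 to 104, 36 to 60 and 10 to 18 genes with rising romidepsin and for 91 to 97, 47 to 58 and 10 to 20 with rising vorinostat. In CD4 cells 0 to 1 rose and 3 to 24 fell at 10 nM, 1 to 3 rose and 35 to 61 fell at 30 nM, 0 rose and 0 to 1 fell at 2 µM, and 2 to 3 rose and 31 to 54 fell at 10 µM. In CD8 cells 0 to 8 rose at 10 nM, 14 to 28 rose and 0 to 2 fell at 30 nM, 0 to 2 rose at 2 µM, and 15 to 26 rose and 3 to 8 fell at 10 µM. The gap narrowed for 0 genes at each middle dose, for 5 to 37 at 30 nM and for 0 to 13 at 10 µM. These fits have fewer samples and did not use the block. The cause of the other shifts was not tested. No result reversed under these alternatives. A lone array is assumed to vary like the other groups.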
